A study of Homo sapiens with 4 samples.

Results

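The thiol and NADPH defence of the cell was examined through 40 genes in U87 cells, a long-established line from a human glioma, after knockdown of GLUD1, which encodes the mitochondrial glutamate dehydrogenase. The genes were taken by symbol from a table of 57820 genes, in which each of the 40 had 1 row, and they cover glutathione, thioredoxin and peroxiredoxin, superoxide and catalase, and NADPH supply, with NQO1, OSGIN1 and AKR1B1 beside these 4 groups. The knockdown libraries came from cells with a short hairpin RNA, labelled shGlud1, and the control libraries from cells with a hairpin labelled shNT. There were 2 libraries in each group. All 4 came from cells kept for 6 h in low glucose, with 10% bovine calf serum in the growth medium, so the low glucose is shared by both groups and is not compared here. The labels name 1 hairpin against the gene, and do not say whether the cells were a pool or a clone. Nor do they say that replicate libraries were grown as separate cultures, so a p-value here reflects the scatter of 4 libraries, which could be technical.

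Glutathione is made in an ATP-driven pathway from glutamate, cysteine and glycine, and it reduces peroxides through the glutathione peroxidases. Thioredoxin does the same through the peroxiredoxins. Both thiols are returned to the reduced form with electrons from NADPH, which the pentose phosphate pathway and the malic enzymes supply. Many of these genes have antioxidant response elements, short promoter or enhancer sequences bound by the transcription factor NRF2. Glutamate dehydrogenase uses glutamate, which is also a building block of glutathione.

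Expected counts, which are estimated reads per gene, summed to 17407149 and 18537314 in the shGlud1 libraries and to 16546849 and 18118503 in the shNT libraries. Levels are given as CPM, the count relative to the TMM-scaled library total, and each fold change divides shGlud1 by shNT, in log2 units with its standard error (SE). A gene was called changed at an adjusted p under 0.05 in edgeR's quasi-likelihood test over all 14616 genes tested. GLUD1 was at 34.0 and 44.5 CPM in the shGlud1 libraries, against 78.1 and 76.5 CPM in the shNT libraries (log2 fold change -0.98, SE 0.13, adjusted p = 1.26e-12), and its fold change was -0.45 under total counts and -0.48 with the trend on median transcript length removed. Of the 10 glioma and astrocyte markers, 6 were above 1 CPM. VIM was at 4440 and 4920 CPM in the shGlud1 libraries and at 2420 and 2280 CPM in the shNT libraries, NES was at 29.8 and 28.5 CPM in the shGlud1 libraries and at 8.06 and 7.19 CPM in the shNT libraries, and SOX2 was at 0 in all 4 libraries. GFAP, S100B and OLIG2 stayed under 0.4 CPM. The 4 mesenchymal genes summed to 1050 and 1060 CPM in the shGlud1 libraries and to 766 and 660 CPM in the shNT libraries, with AXL at 534 and 546 CPM in the shGlud1 libraries and 268 and 232 CPM in the shNT libraries, and the part of these differences in the results was not tested. The 5 blood cell markers summed to at most 0.522 CPM in any library, and the epithelial list held 1 gene above 1 CPM, KRT14, at 14.0 and 12.7 CPM in the shGlud1 libraries and 52.7 and 56.9 CPM in the shNT libraries. In bulk RNA, fewer cells of a type and less RNA per cell cannot be told apart.

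Most genes of this defence were lower in the shGlud1 libraries. Of the 40, 37 had enough reads to be tested, and of these 25 fell, 3 rose and 9 were not called. Over all genes tested 61.0% were called, 29.1% lower and 31.9% higher. The median log2 fold change was -0.79 over the 37 and 0.06 over all genes tested. The 3 genes that rose were CAT, GPX8 and PRDX3. At least 2-fold falls were called in 12 of the 37 and at least 2-fold rises in 2, where the shares of all genes were 12.8% and 14.9%. The groups did not overlap in 29 genes that were lower and 4 that were higher (38.2% and 42.8% of all genes tested). Together the 40 genes took 1.27% and 1.18% of all counts in the shGlud1 libraries, against 1.70% and 1.67% in the shNT libraries, with no overlap.

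The number of genes that fell depended on how the libraries were scaled. Scaled by total counts alone, 18 of the 37 fell and 11 rose, at a median of -0.27, while 13.7% of all genes were called lower and 51.9% higher, at a median of 0.57. The median of the 37 stood below that of all genes by 0.84 under total counts and by 0.85 with TMM factors. A change of factors moves all genes by nearly the same amount, so these gaps could hardly differ. The fold changes of all genes also followed transcript length (Spearman correlation 0.45 across genes, which are not independent replicates; 0.24 across the 37), and these genes have short transcripts, with a median longest transcript of 2152 bases against 3374.5 bases for all genes tested. Length also went with the log2 ratio of shGlud1 replicate 1 over shGlud1 replicate 2 (Spearman correlation -0.33 across genes). A length trend was thus also present between libraries of the same group. Among the 8 tested members under 1500 bases 6 fell, against 55.1% of all genes that short, and the medians were -1.08 for the members and -0.73 for all such genes. From 1500 to 3000 bases 13 of 17 fell, against 40.8% of all genes, with medians of -0.79 and -0.26. Over 3000 bases 6 of 12 fell, against 16.8% of all genes, with medians of -0.32 and 0.39. With the trend on longest transcript length removed from each library, 21 of the 37 fell and 5 rose, at a median of -0.40. Of all genes 24.3% were called lower and 31.7% higher, at a median of 0.10. In that setting the median of the 37 stood below that of all genes by 0.50. With length and GC trends both removed 22 fell and 7 rose, against 25.3% and 31.3% of all genes. DESeq2 called 26 of the 37 lower and 3 higher, against 26.8% and 24.0% of all genes. The part of length and of scaling in these results was not tested beyond these values.

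**Figure D1:**
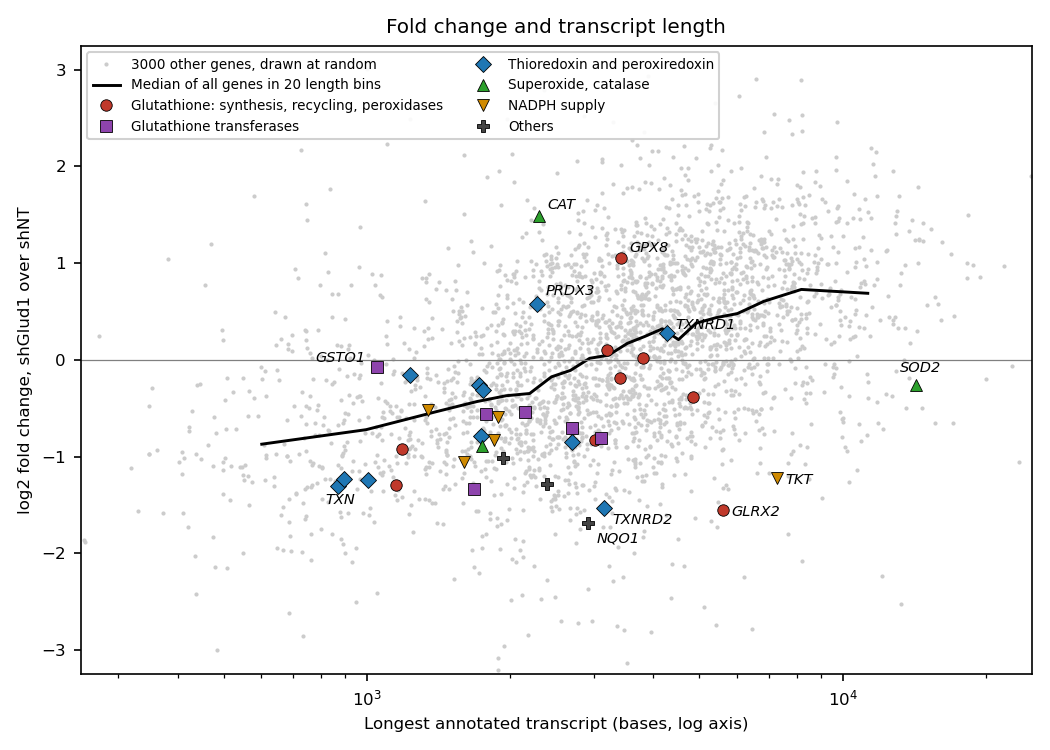
The log2 fold change (shGlud1 over shNT, TMM factors) is plotted against the longest annotated transcript in bases, on a log axis, for the 37 genes by group (coloured symbols), for 3000 other genes drawn at random (grey) and as the median of all genes in 20 length bins (line); grey points beyond the vertical axis are not shown. The line climbs from -0.87 in the shortest bin to 0.69 in the longest. CAT, GPX8 and PRDX3 are among the genes above it, and NQO1, TXNRD2, GLRX2 and TKT are among those far below it.

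In all, 19 genes kept their call in every one of the 16 alternative settings run, 16 of them lower and 3 higher (10.6% and 15.9% of all genes tested). They are GSS, GPX1, GLRX2, GSTP1, MGST3, TXN, TXNRD2, PRDX4, PRDX5, SRXN1, SOD1, PGLS, TKT, NQO1, OSGIN1 and AKR1B1 among those that fell, and CAT, GPX8 and PRDX3 among those that rose. The calls of the 9 other genes that fell, GCLM, GPX4, GSTK1, MGST1, TXN2, PRDX6, PGD, TALDO1 and RPIA, were each lost in at least 1 setting. For GSTK1 and RPIA the only such setting was total counts, and for TXN2 it was the removal of length and GC trends.

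**Figure D2:**
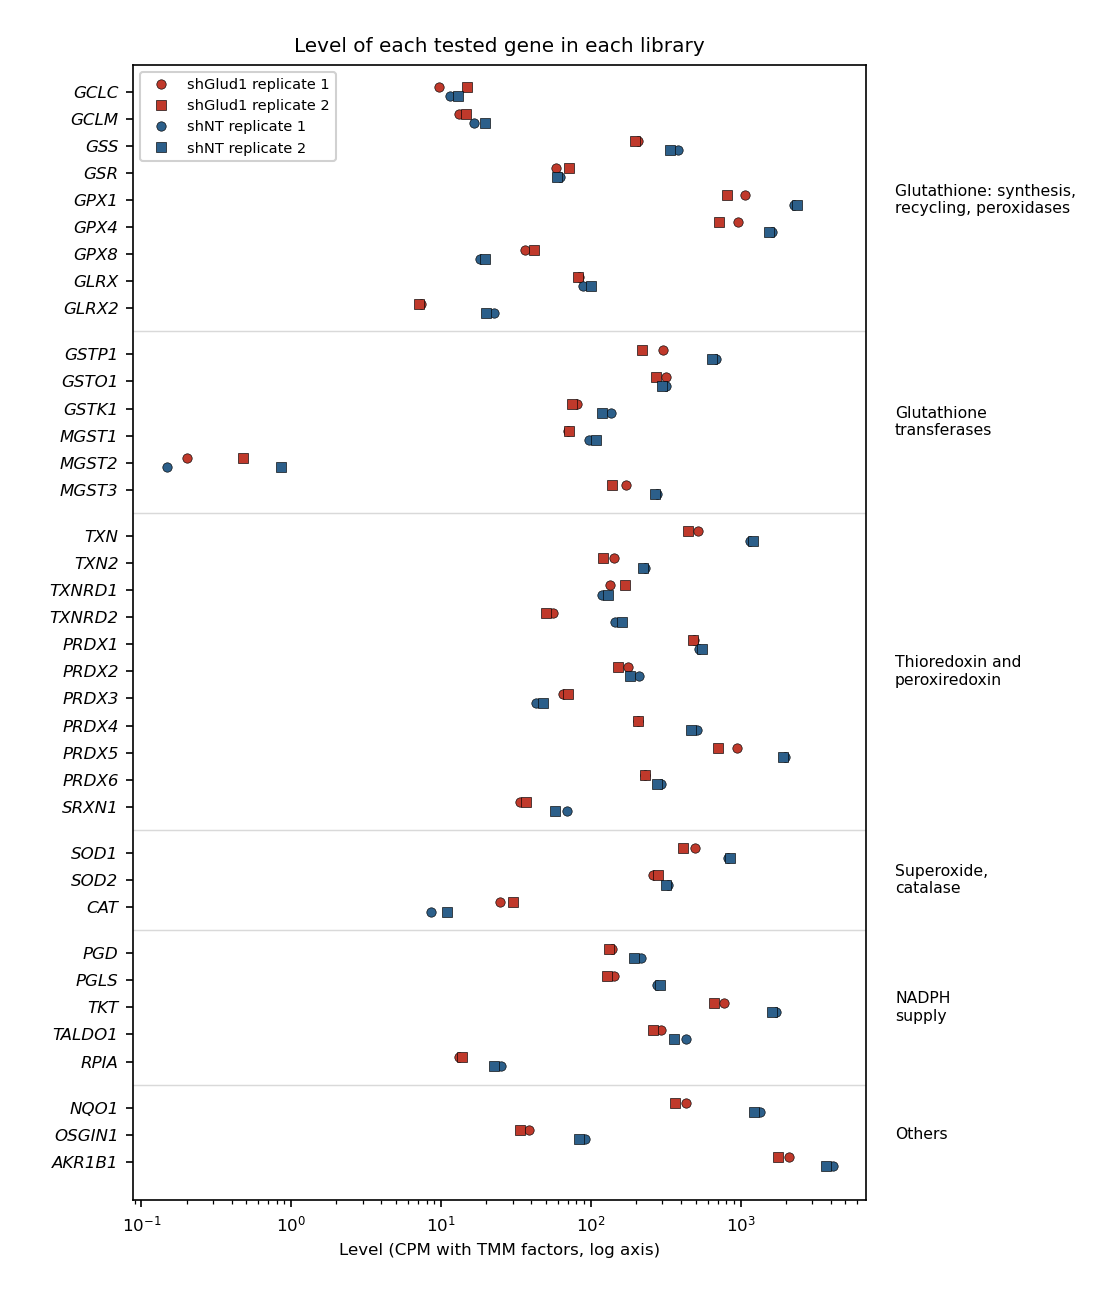
The level of each of the 37 tested genes (CPM with TMM factors, log axis) is shown in each library, with shGlud1 in red above shNT in blue, circles for replicate 1 and squares for replicate 2. Levels run from under 1 CPM (MGST2) to 4095 CPM (AKR1B1 in shNT replicate 1), and the red symbols lie to the left of the blue ones in 29 genes and to the right in 4.

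In the glutathione group, 5 of the 9 genes tested for synthesis, recycling and peroxide reduction fell and 1 rose. The first step of synthesis is catalysed by glutamate-cysteine ligase, whose catalytic subunit is encoded by GCLC and whose modifier subunit by GCLM. GCLC was at 9.65 and 15.0 CPM in the shGlud1 libraries and at 11.4 and 13.0 CPM in the shNT libraries, and the groups overlapped (log2 fold change 0.02, SE 0.19, adjusted p = 0.939; 95% interval from -0.35 to 0.39). GCLM was at 13.1 and 14.6 CPM in the shGlud1 libraries, against 16.6 and 19.5 CPM in the shNT libraries, a fall near the threshold (-0.38, SE 0.17, adjusted p = 0.0456) that DESeq2 and limma-voom did not call. GSS, which encodes the synthetase of the second step, was at 207.4 and 196.2 CPM in the shGlud1 libraries, against 380.0 and 335.5 CPM in the shNT libraries, and fell by 0.83 (SE 0.14, adjusted p = 1.72e-08, edgeR's test). GSR, the reductase that returns oxidised glutathione to its thiol form, was at 58.2 and 71.1 CPM in the shGlud1 libraries and 61.7 and 59.3 CPM in the shNT libraries and was not called (0.10, 95% interval from -0.16 to 0.35). Under total counts GCLC (0.55) and GSR (0.62) were called higher, and both values lie close to the median of all genes on that scale, 0.57.

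The peroxidase genes of this family moved in different directions. GPX1 and GPX4 encode selenoproteins: GPX1 reduces hydrogen peroxide in the cytosol and mitochondria, and GPX4 reduces lipid hydroperoxides in membranes. GPX8 encodes a peroxidase of the endoplasmic reticulum that has cysteine where they have selenocysteine. The windows below are coding sequence of GRCh38 transcripts in GENCODE 29, read 5′ to 3′ on the coding strand, and show the codon of that residue in capitals. It is TGA, a stop codon read as selenocysteine, in GPX1 (chr3:49358132-49358134, minus strand, codon 49 of 203) and in GPX4 (chr19:1105403-1105405, plus strand, codon 73 of 197), and it is TGC, a cysteine codon, in GPX8 (chr5:55161024-55161026, plus strand, codon 79 of 209).
GPX1: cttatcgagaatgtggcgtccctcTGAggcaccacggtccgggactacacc
GPX4: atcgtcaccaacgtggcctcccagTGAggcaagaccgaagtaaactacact
GPX8: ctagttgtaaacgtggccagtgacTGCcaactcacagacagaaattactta

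GPX1 was at 1074.8 and 811.4 CPM in the shGlud1 libraries, against 2250.6 and 2356.5 CPM in the shNT libraries, and fell by 1.29 (SE 0.16, adjusted p = 4.99e-14). GPX4 fell by 0.92 (SE 0.16), with 955.2 and 716.6 CPM in the shGlud1 libraries and 1614.4 and 1541.7 CPM in the shNT libraries. These 2 transcripts are short, 1151 and 1184 bases, and with the length trend removed GPX1 was at -0.60 (adjusted p = 1.43e-06) and GPX4 at -0.24 (adjusted p = 0.068). GPX8 rose to 36.3 and 42.0 CPM in the shGlud1 libraries, against 18.2 and 19.7 CPM in the shNT libraries (log2 fold change 1.05, SE 0.15, adjusted p = 1.09e-11), and was at 1.03 with the length trend removed. Both shGlud1 libraries were below both shNT libraries for GPX1 and GPX4 and above them for GPX8. GPX3, the secreted peroxidase gene, had 6 and 15 expected counts in the shGlud1 libraries and 1 and 4 in the shNT libraries, too few to be tested. GPX7 was at 0 in all 4 libraries, which allows up to 0.15 and 0.131 CPM in the shGlud1 libraries and 0.219 and 0.196 CPM in the shNT libraries (3 counts per library, counting error only).

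Glutaredoxins use glutathione to reduce protein disulfides. GLRX2, the mitochondrial and nuclear form, was at 7.35 and 7.16 CPM in the shGlud1 libraries, against 22.7 and 19.9 CPM in the shNT libraries, and fell by 1.55 (SE 0.19, adjusted p = 7.02e-16). GLRX2 shares 481 of its 6210 exon bases with TROVE2 on the other strand, and TROVE2, at 3.30 to 4.73 CPM, was not called (0.30, adjusted p = 0.354). The cytosolic GLRX was at 82.8 and 82.0 CPM in the shGlud1 libraries and at 88.9 and 99.5 CPM in the shNT libraries, and did not pass the test (-0.19, adjusted p = 0.182). GLRX was called higher under total counts (0.32, adjusted p = 0.0129) and lower with length and GC trends removed (-0.47, adjusted p = 0.000124).

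Glutathione transferases join glutathione to electrophiles, and 4 of the 6 tested fell. GSTP1, the pi-class enzyme, was at 303.0 and 219.4 CPM in the shGlud1 libraries, against 679.3 and 640.2 CPM in the shNT libraries, and fell by 1.34 (SE 0.15, adjusted p = 3.11e-18, edgeR's test). MGST3, MGST1 and GSTK1 fell by 0.81, 0.54 and 0.70, and the fall of MGST1 was not called under total counts (-0.02) or with the length trend removed (-0.16). MGST1 and MGST3 encode membrane-bound enzymes, and GSTK1 the kappa-class enzyme of mitochondria and peroxisomes. GSTO1, the omega-class enzyme, was at 318.3 and 270.8 CPM in the shGlud1 libraries and 319.3 and 297.1 CPM in the shNT libraries, and was not called (-0.07, 95% interval from -0.34 to 0.21). Its transcript is 1052 bases long, and it was called higher with the length trend removed (0.66, adjusted p = 4.44e-08) and under total counts (0.45). MGST2 had 2 to 13 expected counts a library and was not called.

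In the thioredoxin and peroxiredoxin group 7 of 11 genes fell and 1 rose. TXN, the cytosolic thioredoxin gene, was at 515.9 and 444.5 CPM in the shGlud1 libraries, against 1158.5 and 1203.7 CPM in the shNT libraries, and fell by 1.30 (SE 0.16, adjusted p = 8.2e-16). TXN2, which encodes the mitochondrial thioredoxin, fell by 0.79 (SE 0.13), with 142.9 and 119.6 CPM in the shGlud1 libraries and 228.5 and 224.3 CPM in the shNT libraries. Neither pair of groups overlapped. TXN was at -0.51 and TXN2 at -0.29 with the length trend removed, and both were still called.

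The thioredoxin reductase genes stood apart from each other. TXNRD1 encodes the cytosolic and TXNRD2 the mitochondrial enzyme, and both end in a selenocysteine that is the last residue but 1. The windows show the end of the coding sequence up to the last codon before the stop, with the selenocysteine codon in capitals, at chr12:104348413-104348415 on the plus strand for TXNRD1 (codon 648 of 649) and chr22:19877111-19877113 on the minus strand for TXNRD2 (codon 523 of 524).
TXNRD1: gcaagcatcctccaggctggctgcTGAggt
TXNRD2: ctggaccccacggtgacaggctgcTGAggg

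TXNRD2 was at 55.8 and 50.3 CPM in the shGlud1 libraries, against 145.8 and 161.0 CPM in the shNT libraries, and fell by 1.53 (SE 0.13, adjusted p = 2.8e-29). TXNRD1 was at 133.8 and 169.6 CPM in the shGlud1 libraries, against 119.3 and 130.8 CPM in the shNT libraries, higher in both without overlap, and did not pass the test (0.28, SE 0.13, adjusted p = 0.0541). TXNRD1 was called higher under total counts (0.80, adjusted p = 3.97e-08), with upper-quartile factors, with no low-count filter and without shGlud1 replicate 1, and once length and GC trends were removed it was below 0 and not called (-0.14, adjusted p = 0.20). The ratio of TXNRD1 to TXNRD2 counts, which no scaling of a library can change, was 2.40 and 3.37 in the shGlud1 libraries and 0.818 and 0.812 in the shNT libraries. The kit does not mark strand, so where exons of 2 genes overlap their reads cannot be told apart, which applies to 11 of the 40 genes, TXNRD2 among them.

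Peroxiredoxins reduce peroxides with electrons from thioredoxin, and their 6 genes moved in different directions. PRDX4, whose product sits in the endoplasmic reticulum, was at 206.2 and 205.4 CPM in the shGlud1 libraries, against 510.9 and 462.0 CPM in the shNT libraries, and fell by 1.24 (SE 0.14, adjusted p = 9.84e-17). PRDX5, found in mitochondria, peroxisomes and cytosol, was at 949.2 and 707.0 CPM in the shGlud1 libraries, against 1961.3 and 1920.6 CPM in the shNT libraries, and fell by 1.23 (SE 0.16, adjusted p = 3.08e-13). Both transcripts are short, and with the length trend removed PRDX4 was at -0.49 and PRDX5 at -0.46. With length and GC trends removed they were at -0.53 and -0.22, and both were still called. PRDX3, the mitochondrial peroxiredoxin gene, rose to 65.3 and 70.6 CPM in the shGlud1 libraries, against 43.1 and 47.8 CPM in the shNT libraries (log2 fold change 0.58, SE 0.13, adjusted p = 3.63e-05). Under total counts PRDX3 was at 1.10, and removing the length trend gave 0.91.

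The remaining peroxiredoxin genes changed little with TMM factors. PRDX1, the abundant cytosolic form, was at 487.2 and 478.3 CPM in the shGlud1 libraries and at 527.3 and 554.8 CPM in the shNT libraries, and did not pass the test (-0.16, SE 0.15, adjusted p = 0.331). PRDX2, also cytosolic, was at -0.26 (adjusted p = 0.0838). The fits with DESeq2 and with RLE factors called PRDX2 lower. With length and GC trends removed it was called higher (0.36, adjusted p = 0.00109, edgeR's test). PRDX6, which uses glutathione in place of thioredoxin, fell by 0.31 (adjusted p = 0.0396). Under total counts PRDX1 (0.35) and PRDX2 (0.26) were called higher, below the median of all genes of 0.57, and with the length trend removed PRDX1 was called higher (0.51) and PRDX6 was not called (0.19). SRXN1, which encodes the sulfiredoxin that repairs over-oxidised peroxiredoxins, was at 33.7 and 36.6 CPM in the shGlud1 libraries, against 69.4 and 57.8 CPM in the shNT libraries, and fell by 0.85 (SE 0.13).

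Superoxide dismutases convert superoxide to hydrogen peroxide, and catalase breaks hydrogen peroxide down in peroxisomes. Of these 3 genes 1 rose, 1 fell and 1 was not called. CAT, the catalase gene, was at 24.7 and 30.1 CPM in the shGlud1 libraries, against 8.50 and 10.9 CPM in the shNT libraries, the largest rise among the 37 (log2 fold change 1.49, SE 0.17, adjusted p = 5.25e-17). CAT remained called in every setting, with values from 1.33 to 2.02. SOD1, the cytosolic copper-zinc enzyme, was at 495.0 and 409.2 CPM in the shGlud1 libraries, against 826.7 and 848.3 CPM in the shNT libraries, and fell by 0.89 (SE 0.15, adjusted p = 1.86e-08). SOD2, the mitochondrial manganese enzyme, was at 258.8 and 281.0 CPM in the shGlud1 libraries and at 325.2 and 319.2 CPM in the shNT libraries, lower without overlap but not called (-0.26, SE 0.14, adjusted p = 0.101). SOD2 depended on the setting: it was called higher under total counts (0.27) and lower with the length trend removed (-0.86), where its longest annotated transcript of 14266 bases, against a median of 698 bases over its transcripts, was the length used. SOD2 also shares exon bases with WTAP on the other strand, which fell by 0.86, and the counts of SOD2 were not whole.

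The 250 bases before the CAT transcription start hold 5 matches to CCAAT on either strand, shown in capitals (chr11:34438684-34438933, plus strand, RefSeq sequence of GRCh38.p14). CCAAT, or its reverse ATTGG, stood in 16 of the 47 such windows of these genes and in 32.0% of all 35116. Counted by gene, 13 of the 33 members with a window held it in at least 1 (39.4%, against 37.0% of all genes with a window).
CAT: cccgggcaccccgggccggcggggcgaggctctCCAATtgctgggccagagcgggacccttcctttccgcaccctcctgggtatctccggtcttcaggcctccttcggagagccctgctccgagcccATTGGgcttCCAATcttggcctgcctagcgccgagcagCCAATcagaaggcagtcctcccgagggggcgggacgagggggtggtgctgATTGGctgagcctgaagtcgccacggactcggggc

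All 5 of the tested genes for NADPH supply fell with TMM factors. TKT, the transketolase of the non-oxidative pentose phosphate branch, was at 767.3 and 665.3 CPM in the shGlud1 libraries, against 1705.7 and 1626.1 CPM in the shNT libraries, and fell by 1.22 (SE 0.16, adjusted p = 2.45e-13, edgeR's test). PGLS, the lactonase of the oxidative branch, was at 143.0 and 127.8 CPM in the shGlud1 libraries, against 275.8 and 288.3 CPM in the shNT libraries, and fell by 1.06 (SE 0.14, adjusted p = 8.91e-14). RPIA, PGD and TALDO1 fell by 0.83, 0.59 and 0.52. They encode the ribose phosphate isomerase, the NADPH-forming 6-phosphogluconate dehydrogenase and the transaldolase. Under total counts only TKT (-0.70) and PGLS (-0.54) of the 5 were called, and PGD was at -0.07 and TALDO1 at 0.00. With the length trend removed PGD (-0.13) and TALDO1 (0.12) were not called. With length and GC trends removed TALDO1 was called higher (0.23, adjusted p = 0.0394, edgeR's test). ME1, the cytosolic malic enzyme gene, had 0 and 1 expected counts in the shGlud1 libraries and 1 and 0 in the shNT libraries and was not tested.

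The 3 genes outside these groups all fell. NQO1, which encodes a quinone reductase that uses NADH or NADPH, was at 429.5 and 361.8 CPM in the shGlud1 libraries, against 1336.8 and 1222.8 CPM in the shNT libraries, the largest fall among the 37 (log2 fold change -1.69, SE 0.16, adjusted p = 1.75e-25). OSGIN1, an oxidative stress-induced growth inhibitor gene, was at 38.4 and 33.6 CPM in the shGlud1 libraries, against 91.6 and 82.7 CPM in the shNT libraries (-1.28, SE 0.13). AKR1B1, which encodes the NADPH-dependent aldose reductase, was at 2098.9 and 1769.9 CPM in the shGlud1 libraries, against 4094.9 and 3729.2 CPM in the shNT libraries, and fell by 1.02 (SE 0.17). Per kilobase of longest transcript, AKR1B1 was among the most abundant of these genes in the shNT libraries, at 2120 and 1930 CPM per kb, beside PRDX5 at 2200 and 2150 and GPX1 at 1960 and 2050 CPM per kb. NQO1 was called lower in all settings, from -1.84 to -1.18.

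NQO1, GSTP1 and TXNRD1 are commonly given as genes with antioxidant response elements, and their promoters are shown because NQO1 and GSTP1 were called lower and TXNRD1 was not. The core TGACNNNGC was searched on both strands. It stood in 7 of the 47 windows of 250 bases before a RefSeq start of these genes, and in 10.9% of all 35116 such windows. Counted by gene, 6 of the 33 members that had a window held it in at least 1 (18.2%, against 13.2% of all genes with a window): GCLM, GSTO1, GSTP1, ME1, PGD and TXNRD1. Of these 6, GCLM, GSTP1 and PGD fell, GSTO1 and TXNRD1 were not called and ME1 was not tested. Matches are in capitals, and start 66 bases before the start in GSTP1 and 99 bases before it in TXNRD1, in the first of its 2 windows. NQO1 had no match in this window, and bases further from the start were not searched for any gene. The windows lie at chr11:67583562-67583811 (GSTP1, plus strand), chr12:104215529-104215778 (TXNRD1, plus strand) and chr16:69726561-69726810 (NQO1, minus strand) of GRCh38.p14.
GSTP1: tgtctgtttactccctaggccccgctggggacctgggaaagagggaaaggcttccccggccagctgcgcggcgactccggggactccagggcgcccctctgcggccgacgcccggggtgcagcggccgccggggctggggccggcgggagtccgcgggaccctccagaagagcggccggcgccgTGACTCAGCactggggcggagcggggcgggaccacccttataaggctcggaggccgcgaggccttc
TXNRD1: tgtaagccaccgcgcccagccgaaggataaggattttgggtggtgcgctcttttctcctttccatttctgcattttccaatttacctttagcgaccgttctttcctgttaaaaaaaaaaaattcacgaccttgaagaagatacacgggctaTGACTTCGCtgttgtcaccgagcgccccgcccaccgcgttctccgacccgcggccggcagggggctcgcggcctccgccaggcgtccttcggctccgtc
NQO1: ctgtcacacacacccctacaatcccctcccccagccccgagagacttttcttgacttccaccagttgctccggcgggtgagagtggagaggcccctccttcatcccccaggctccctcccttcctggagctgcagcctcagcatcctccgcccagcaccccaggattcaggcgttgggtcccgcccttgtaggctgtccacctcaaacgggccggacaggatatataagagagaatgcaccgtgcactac

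**Figure D3:**
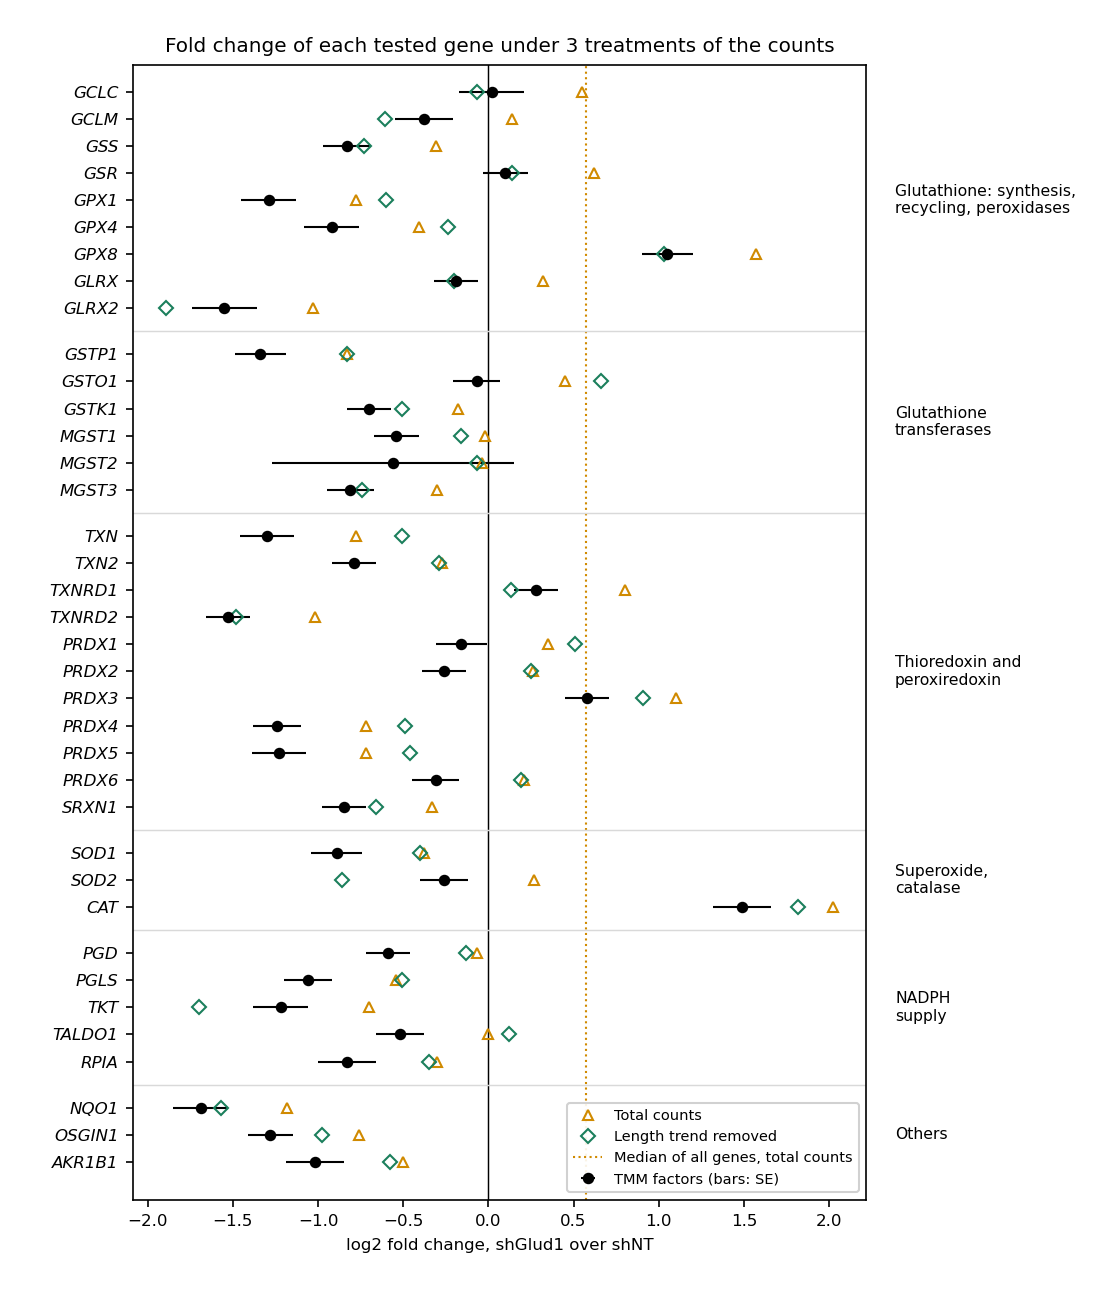
The log2 fold change (shGlud1 over shNT) of each of the 37 tested genes is shown with TMM factors (black, bars are the SE), under total counts (open triangles) and with the length trend removed (open diamonds). The dotted line is the median of all genes under total counts, 0.57. CAT, GPX8, PRDX3, TXNRD1 and GSR lie right of 0 under all 3. NQO1, GLRX2, TXNRD2, TKT, GSTP1 and OSGIN1 lie at or left of -0.70 under all 3.

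Ratios of paired genes within a library compare partners without any scaling between libraries, though not without the length trend. CAT over PRDX1, peroxide enzymes of different compartments, was 0.0507 and 0.0630 in the shGlud1 libraries and 0.0161 and 0.0197 in the shNT libraries, a difference of 1.67 on the log2 scale. SOD2 over SOD1 was 0.523 and 0.687 in the shGlud1 libraries and 0.393 and 0.376 in the shNT libraries (0.64). That direction turned where the longest transcript was the length used: with that length trend removed SOD2 was at -0.86 and SOD1 at -0.40. With length and GC trends removed they were at -1.09 and -0.37. The direction did not turn with the trend on median transcript length removed, a setting added after the data were seen. There SOD2 was at -0.25 and SOD1 at -0.77. TXN over TXN2 was 3.61 and 3.72 in the shGlud1 libraries and 5.07 and 5.37 in the shNT libraries (-0.51). GCLM over GCLC was 1.36 and 0.974 in the shGlud1 libraries and 1.46 and 1.50 in the shNT libraries (-0.36), with the shGlud1 libraries further from each other than replicate 1 was from the shNT libraries. TXNRD1 over TXNRD2 differed by 1.80. With length and GC trends removed TXNRD1 was at -0.14 and TXNRD2 at -1.21, and CAT was at 1.55 and PRDX1 at 0.46. In that setting TXN was at -0.77 and TXN2 at -0.19, and GCLM was at -0.57 and GCLC at -0.34. In all 5 ratios the groups did not overlap. Each ratio had p = 0.333 in an exact two-sided permutation test over the libraries, before and after adjustment over the 5. That is the smallest p that 2 against 2 libraries allow.

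**Figure D4:**
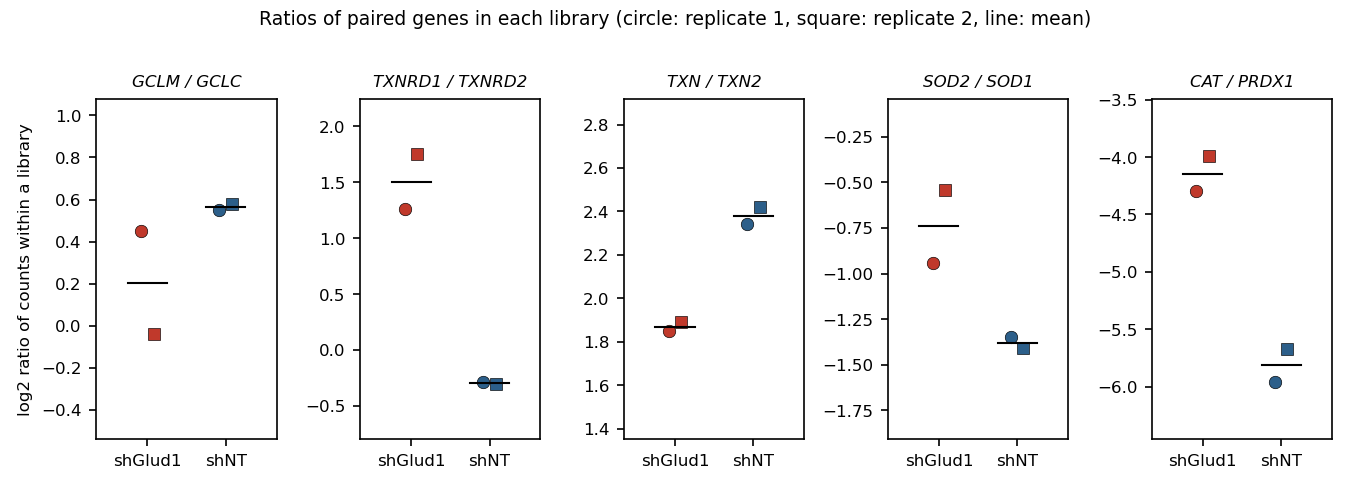
The log2 ratio of the counts of 2 genes in the same library is plotted for 5 pairs, with shGlud1 (red) left of shNT (blue), circles for replicate 1, squares for replicate 2 and a line at the mean of each group; each panel has its own axis. TXNRD1 over TXNRD2 is at 1.26 and 1.75 in the shGlud1 libraries and at -0.29 and -0.30 in the shNT libraries, and no panel has overlapping groups.

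Other genes of these pathways were counted in 6 lists, to be read beside the 29.1% of all genes called lower and 31.9% called higher, at a median of 0.06. For cysteine supply and glutathione turnover 9 of 13 genes fell and 3 rose, at a median of -1.04. SLC3A2, the heavy chain shared by the cystine transporter, was at 158.8 and 150.9 CPM in the shGlud1 libraries, against 1856.8 and 1801.7 CPM in the shNT libraries (-3.56), and CHAC1, which degrades glutathione, fell by 2.07. The export pump gene ABCC1 (0.66) and the glutathione-binding LANCL1 (0.78) rose. With the length trend removed the rise of ABCC1 was not called (0.23, adjusted p = 0.21, edgeR's test). Of 16 further transferase, glutaredoxin and glyoxalase genes 8 fell, among them GSTZ1 (-1.10) and GSTT2 (-2.61), whose near-identical copy GSTT2B can share its reads,, and 3 rose, among them GSTCD (1.60) and the glyoxalase gene GLO1 (0.77), at a median of -0.41. Of 17 further thioredoxin-fold and partner genes 10 fell, among them the sestrin gene SESN2 (-2.24) and TXNDC17 (-1.08), and 5 rose, among them TXNIP (4.33), which encodes the inhibitor that binds thioredoxin, and SESN1 (1.18). TXNIP was at 48.9 and 56.8 CPM in the shGlud1 libraries, against 1.98 and 3.20 CPM in the shNT libraries.

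Among further NADPH genes 9 of 18 rose and 4 fell, at a median of 0.11. MTHFD1 (1.24), a cytosolic folate enzyme, and H6PD (1.00), the hexose-6-phosphate dehydrogenase of the endoplasmic reticulum, rose. The mitochondrial folate enzyme genes MTHFD2 (-0.70) and MTHFD2L (-0.87) fell. H6PD was at 0.32 with the trend on median transcript length removed, and was still called. Of 12 genes of selenium use and selenoproteins 8 fell, among them SELK (-1.88) and SELM (-1.49), and SEPN1 rose (0.71), at a median of -0.69. The rise of SEPN1 was not called with the trend on median transcript length removed (0.10, adjusted p = 0.541, edgeR's test). Of 3 further superoxide genes 2 fell, CYBA (-0.87), which encodes a subunit of NADPH oxidases, and CCS (-0.79), the copper chaperone of SOD1, and neither was called lower with length and GC trends removed. Under total counts the 6 lists in this order had 6, 2, 6, 0, 5 and 1 genes called lower and 4, 6, 6, 10, 4 and 1 called higher. Those counts are to be read beside the shares of all genes on that scale, 13.7% lower and 51.9% higher. All 6 were compiled with earlier results of these data known, so their counts are descriptions.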

How the data were processed

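RNA from U87 cells was measured in 4 libraries, 2 shGlud1 and 2 shNT. Per the labels' protocols, 1 µg of total RNA was poly-A selected, prepared with the unstranded TruSeq V2 chemistry and 12 cycles of PCR, and sequenced as pairs of 150 nt. The authors deposited expected counts, estimated reads per gene, and 20.1% of the values above 0 had a fraction. Bowtie 0.12.2 and build mm8 are named in the submitters' processing notes, yet all 57820 rows carry human gene IDs, so the build is uncertain. No source used here gives the counter or the annotation.

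Counts were rounded, filtered with filterByExpr (minimum count 10), scaled with TMM factors (1.15 and 1.24 for shGlud1, 0.826 and 0.845 for shNT) and compared with edgeR 4.0.16 (R 4.3.3, robust quasi-likelihood test, Benjamini-Hochberg over 14616 genes). The SE is the absolute log2 fold change over the square root of F, and 95% intervals are 1.96 SE to each side. The edgeR step was tested on simulated counts with 200 genes changed in random directions. That setting does not cover data in which most genes change, so it does not bear on the scaling. Lengths came from GENCODE 29 (97.6% of tested genes), and trends were removed by lowess (span 0.3). Alternatives were DESeq2 1.42.0, limma-voom 3.58.1, other factors and filters, rounding down, the replicate number as a block, each library left out, and length and GC trends; the median transcript length was added after the data were seen.

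All 40 members are named, with the value of every library for those called at least 2-fold and for the paired genes, and with up to 2 higher and 2 lower genes of lowest p per further list; library values of GSS, GSR, GPX4, GLRX, GSTO1, PRDX3 and SRXN1, and the counts of untested members, go beyond that rule. The members and lists were chosen with earlier results of these data known. Without molecular identifiers, floors cover counting error only. A value for 1 gene outside the members is not reported here.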

Additional observations from a re-analysis of the deposited data

How the results depend on the processing

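Scaling by total counts moved the log2 ratio of the summed level of the 40 genes to -0.46, the genes called higher to 11, the median of the 37 to -0.27, and the calls over all genes to 7592 higher and 2000 lower. It turned GCLM (0.14), GLRX (0.32), GSTO1 (0.45), PRDX1 (0.35), PRDX2 (0.26), PRDX6 (0.21), SOD2 (0.27) and TALDO1 (0.00) from below 0 to above it. With the length trend removed 5 genes were called higher at a median of -0.40, and GCLC (-0.07), GSTO1 (0.66), PRDX1 (0.51), PRDX2 (0.25), PRDX6 (0.19), TALDO1 (0.12) and TROVE2 (-0.21) changed sign. With length and GC trends removed 7 were called higher at a median of -0.37, and GCLC (-0.34), GSR (-0.04), GPX4 (0.02), GSTO1 (0.42), TXNRD1 (-0.14), PRDX1 (0.46), PRDX2 (0.36), TALDO1 (0.23) and CCS (0.08) changed sign. With the trend on median transcript length removed, chosen after seeing the data, the median was -0.67, and GCLC (-0.16) and GSTO1 (0.05) changed sign. With no low-count filter the median was -0.65. The cause was not tested for any of these. GCLC, close to 0, also changed sign with DESeq2 (-0.04), limma-voom (-0.01) and RLE factors (-0.04).

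With each library left out in turn, the summed level lay between -1.09 and -0.87, the median between -0.80 and -0.66, the genes called lower between 22 and 26 and those called higher between 3 and 4. GCLC lay between -0.33 and 0.28, GSR between -0.05 and 0.22 and GSTO1 between -0.20 and 0.05, each changing sign without shGlud1 replicate 2, and GCLC also without shNT replicate 1 (-0.08). MGST2 lay between -1.31 and 1.19, changing sign without shNT replicate 2. Across these the GCLM over GCLC ratio lay between -0.60 and -0.12.

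The replicate numbers are shared between the groups, but the labels do not say that they pair the libraries, and same-numbered libraries deviated together at a correlation of 0.105. With the replicate number as a block 4745 genes were called higher and 4301 lower, the 40 genes had 25 lower and 3 higher calls, and of the 37 only GCLC (-0.00) changed sign. Low counts limited MGST2, GPX3, GPX7 and ME1.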
